A study of Mus musculus with 17 samples.

Results

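The comparison set the forestomach of mice given benzo(a)pyrene at 75 mg/kg per day against that of mice given 25 mg/kg per day, with 4 arrays in each group. The 8 arrays were chosen by the dose in their titles, out of 17 arrays in all, and no control array enters the difference. At the higher dose 13 of 21384 genes differed (0.0608% of genes tested), 7 higher (0.0327%) and 6 lower (0.0281%). The spread behind these calls was estimated from all 17 arrays, and with the 8 arrays alone 0 genes passed. Chil4, a chitinase-like secreted protein, Stfa2l1, an inhibitor of cysteine proteases, and Defb3, a beta-defensin, were among the genes that rose, and Grp, the gastrin-releasing peptide of gut nerves, fell. Interferon-induced and class I antigen presentation genes lay higher at 75 mg/kg and fatty acid oxidation genes lay lower, but single members of those groups did not pass the adjusted test.

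All animals were male MutaTMMouse mice, a transgenic strain with a bacterial lacZ reporter, aged 24 to 26 weeks. They received benzo(a)pyrene in olive oil by oral gavage daily for 28 days, and the forestomach was collected 72 hours later. The 25 mg/kg group holds replicates 6 to 9 and the 75 mg/kg group replicates 17 to 20, 1 animal per array, while the protocol gives 5 animals per group. The 50 mg/kg group (replicates 12 to 15) and the control group given olive oil alone (replicates 1 to 5) are given beside them as levels. Each array held forestomach RNA in the Cy5 channel and a common reference RNA from 11 mouse cell lines in the Cy3 channel, so every level here is the log2 ratio of Cy5 over Cy3 of 1 probe, and a difference is 75 minus 25 mg/kg on that log2 scale. The RNA came from whole tissue pieces, in which fewer cells of a type and less RNA per cell cannot be told apart.

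Benzo(a)pyrene is a polycyclic aromatic hydrocarbon that binds the aryl hydrocarbon receptor (AHR). The receptor switches on cytochrome P450 enzymes of the CYP1 family, which turn the compound into epoxides that form bulky adducts on DNA, and damaged DNA activates the tumour suppressor p53. The rodent forestomach is lined by stratified squamous epithelium with a cornified surface, over a muscle wall with enteric nerves, and is a tissue in which oral benzo(a)pyrene gives tumours in mice.

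The share of probes with a Cy5 signal well above background was 42.3% to 46.3% at 25 mg/kg and 44.6% to 50.7% at 75 mg/kg (exact permutation test, two-sided, p = 0.371). The median Cy5 signal was 82 to 88 and 85 to 96 (exact p = 0.114, where 0.0286 is the smallest p that 4 arrays against 4 allow). Correlations of log2 ratios between arrays were 0.917 to 0.970 within the 25 mg/kg group, 0.942 to 0.962 within the 75 mg/kg group and 0.906 to 0.966 between them. The 8 arrays lay on 3 slides, with replicates 6, 7 and 17 on slide 1, replicates 8, 18 and 19 on slide 2, and replicates 9 and 20 on slide 3. The keratins of stratified epithelium, the defining markers of the labelled tissue, were all measured (9 of 9), with a mean log2 ratio over the list of 4.24 to 4.68 at 25 mg/kg and 4.05 to 4.66 at 75 mg/kg. Genes of the glandular stomach, which borders the forestomach, ranged from 0.47 to 4.59 at 25 mg/kg and from 0.38 to 2.29 at 75 mg/kg, the highest being replicate 7 at 25 mg/kg.

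Over all genes the median difference was -0.01 and the median standard error was 0.14. An unadjusted p under 0.05 was seen for 1014 genes (4.74%), 488 higher (2.28%) and 526 lower (2.46%), and for 662 genes (3.1%) the 4 arrays at 75 mg/kg did not overlap the 4 at 25 mg/kg. With median centring in place of loess, 358 genes were higher and 129 lower at an unadjusted p under 0.05. A difference of at least 1.5-fold was found for 445 genes (2.08%). The 13 genes that passed all differed by at least 1.5-fold with no overlap. For all 13, the mean at 50 mg/kg lay between those at 25 and 75 mg/kg, as it did for 7925 of the 21345 genes measured on every array. The 13 were selected by their gap between the 2 doses, so the count over all genes is not a like background for them.

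**Figure D1:**
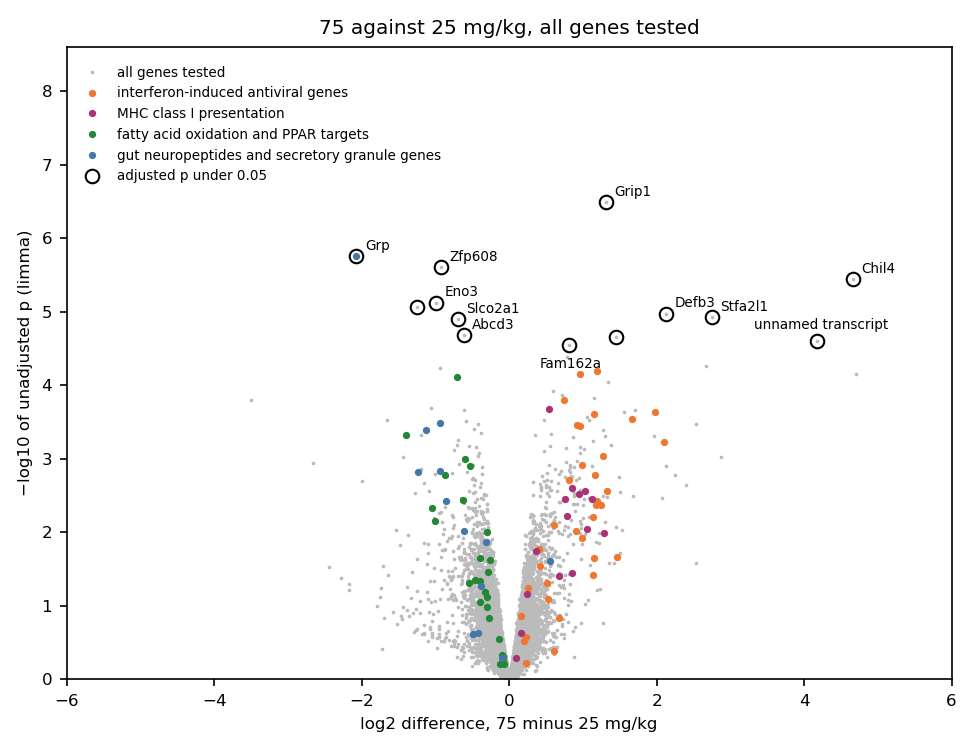
Difference between 75 and 25 mg/kg (x axis, log2) against −log10 of the unadjusted limma p (y axis) for the 21384 genes tested, with members of 4 gene lists in colour and the 13 genes of adjusted p under 0.05 ringed. Interferon-induced and class I genes sit on the right and fatty acid oxidation genes on the left, most of them below the ringed genes.

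Among the genes that rose, Chil4 had the widest fitted difference. Chil4 is a chitinase-like protein secreted by epithelium and macrophages in type 2 inflammation. Its log2 ratio was 0.43, 0.30, 0.80 and 0.46 at 25 mg/kg (replicates 6 to 9) and 4.81, 6.41, 2.93 and 6.47 at 75 mg/kg (replicates 17 to 20). All 4 arrays at the higher dose were far above those at the lower dose, with replicate 19 the lowest of them. Chil4 rose by 4.66 ± 0.69 (SE; limma adjusted p = 0.0192), which is 25.3-fold, a size that rests on signals near background at 25 mg/kg, where the probe was well above background on 1 of 4 arrays. The mean was 2.41 ± 1.52 (SD, n = 4) at 50 mg/kg and 0.11 ± 0.20 (SD, n = 5) in controls. Chil3, its neighbour in the family, was at -3.04, -2.65, -3.43 and -2.80 at 25 mg/kg and at -1.33, 2.63, -1.58 and -0.16 at 75 mg/kg. The 2 groups of Chil3 did not overlap, but its difference of 2.87 ± 0.72 did not pass (limma adjusted p = 0.267), and replicate 18 was its highest array.

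Defb3 encodes an inducible antimicrobial beta-defensin of epithelium. No array at 25 mg/kg or in controls had it well above background, while this was so on all 4 arrays at 75 mg/kg and on 2 of 4 at 50 mg/kg. Its log2 ratios were 0.24, 0.14, 0.18 and 0.20 at 25 mg/kg and 2.76, 2.32, 0.95 and 3.24 at 75 mg/kg. Defb3 was at least 3.65-fold higher at 75 mg/kg (fitted difference 2.13 ± 0.34, limma adjusted p = 0.0302), where the bound sets the 75 mg/kg mean against the lowest signals well above background. The beta-defensin Defb14, a relative that also kills bacteria at epithelial surfaces, had a difference of 0.81 ± 0.36 and did not pass (limma adjusted p = 0.985), and with Agilent's processed signals its difference was -0.14.

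The stefin A genes are a cluster of near-identical cysteine protease inhibitors on mouse chromosome 16, known from cornifying epithelium and from neutrophils. Of 9 listed members 6 were measured, and 1 rose (0.0327% of all genes rose). Stfa2l1 stood at 1.32, 1.38, 2.08 and 1.13 at 25 mg/kg and at 4.01, 5.11, 2.74 and 5.06 at 75 mg/kg, a rise of 2.75 ± 0.45 or 6.74-fold (limma adjusted p = 0.0302). Stfa1 had the widest difference of the family, with 1.35, 1.80, 1.97 and 1.89 at 25 mg/kg and 6.99, 6.26, 4.15 and 8.42 at 75 mg/kg. That difference of 4.70 ± 0.90 did not pass (limma adjusted p = 0.075), and the 75 mg/kg arrays ranged from 4.15 to 8.42. Stfa2 went from 2.11, 2.65, 2.57 and 2.14 to 4.62, 5.93, 3.15 and 5.88 (difference 2.53 ± 0.56, limma adjusted p = 0.164). Stfa3 overlapped between the groups, since replicate 8 at 25 mg/kg was at 5.20 while the other 3 arrays of its group were at 1.86 to 2.37 and the 75 mg/kg arrays at 4.88 to 5.80. Gm21944, a predicted gene that is not on the stefin list, is given for its rank of p. It was at 0.50, 0.07, 0.53 and 0.16 and at 4.23, 2.56, 1.16 and 4.00 (difference 2.67 ± 0.50, limma adjusted p = 0.075). The remaining measured members, Csta1 and Csta2, differed little, by 0.20 and 0.46. The median difference over the 6 stefin genes was 2.47, within a range of 0.20 to 4.70, so it does not describe every member. An unadjusted limma p under 0.05 was found for 4 of the 6, all higher. Replicate 19 had the lowest value at 75 mg/kg in 4 of the 6.

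Because the stefin A genes are close copies, a probe may read more than 1 of them, which was not tested. The 150 bases before the starts of Stfa1, Stfa2, Stfa2l1 and Stfa3 are shown to let the likeness of those stretches be seen. They lie before the transcript, so their likeness does not show what a probe reads. They are from RefSeq (GRCm38.p6, 5′ to 3′ on the gene's strand), and capitals mark the longest run of bases found in all 4.
Stfa1 (chr16:36276998-36277147, plus strand): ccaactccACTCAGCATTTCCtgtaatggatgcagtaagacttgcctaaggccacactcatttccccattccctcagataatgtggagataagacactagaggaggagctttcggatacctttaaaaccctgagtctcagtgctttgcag
Stfa2 (chr16:36408364-36408513, minus strand): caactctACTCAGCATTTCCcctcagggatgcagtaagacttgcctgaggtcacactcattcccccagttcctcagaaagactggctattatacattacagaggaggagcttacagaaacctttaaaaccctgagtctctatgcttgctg
Stfa2l1 (chr16:36156661-36156810, plus strand): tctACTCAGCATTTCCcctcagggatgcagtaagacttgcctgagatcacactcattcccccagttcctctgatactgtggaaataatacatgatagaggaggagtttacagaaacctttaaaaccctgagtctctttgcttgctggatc
Stfa3 (chr16:36455393-36455542, minus strand): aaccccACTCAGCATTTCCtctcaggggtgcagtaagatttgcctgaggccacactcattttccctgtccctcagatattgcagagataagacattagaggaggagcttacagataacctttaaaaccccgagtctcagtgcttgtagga
The shared run has 13 bases and, on either strand, was found in the 250 bases before the start of 9 of 27025 genes (0.0333%). At the best gapless offset, 91.1% of bases were identical between Stfa2 and Stfa2l1, 76.4% between Stfa1 and Stfa3, and 63.8% to 66.0% in the other pairs. The pair with the most similar windows, Stfa2 and Stfa2l1, had levels in the same order over the 4 arrays at 75 mg/kg, with replicate 18 highest and replicate 19 lowest. At the lower dose their orders differed. A transcript without a gene symbol, described below, shared the order at 75 mg/kg, so that order was not particular to this pair. Whether the likeness of the windows bears on the levels was not tested.

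Grip1 and Fam162a rose as well. Grip1, a scaffold protein with PDZ domains that binds glutamate receptors, had the smallest p of all genes. Its log2 ratio was 1.28, 0.70, 1.36 and 1.34 at 25 mg/kg and 2.69, 2.44, 1.98 and 2.80 at 75 mg/kg, so that every array at the higher dose lay above every array at the lower dose. The rise was 1.31 ± 0.16, or 2.48-fold (limma adjusted p = 0.00689; 95% interval of the log2 difference 0.97 to 1.65). Fam162a, a mitochondrial protein induced under low oxygen, was at -1.39, -1.14, -1.04 and -1.24 against -0.33, -0.31, -0.80 and -0.11, a rise of 0.81 ± 0.14 or 1.76-fold (limma adjusted p = 0.0476).

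A pair of probes without a gene symbol also passed upward. The transcript XM_884904 was at 0.15, 1.56, 0.57 and 0.62 at 25 mg/kg and at 4.55, 6.49, 2.50 and 6.04 at 75 mg/kg (difference 4.17 ± 0.72, limma adjusted p = 0.0454), with the 75 mg/kg arrays in the same order as for Stfa2l1. Its probe was well above background on 3 of 4 arrays at 25 mg/kg and on 0 of 5 in controls. The array design names the other feature only by its position in mm9, chr4:88583425-88584070. It rose by 1.45 ± 0.25 (limma adjusted p = 0.0434), from -0.90, -0.71, -0.99 and -0.98 to 0.97, 0.52, -0.11 and 0.84, and 2 further probes in that region differed by 1.05 and 1.20 (adjusted p over probes = 0.131 and 0.128).

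Ranking only genes with a symbol, a further 10 upward and 10 downward came next by p with groups that did not overlap and a difference of at least 1.5-fold, and none of these passed. Those upward that are described nowhere else were S100a7a, an S100 protein of inflamed skin, Npl, which breaks down sialic acid, and Csprs. S100a7a, well above background on 0 of 4 arrays at 25 mg/kg, was at least 1.46-fold higher at 75 mg/kg (limma adjusted p = 0.0629), Npl differed by 1.35 ± 0.26 (limma adjusted p = 0.0894) and Csprs by 1.15 ± 0.24 (limma adjusted p = 0.126), where its second probe gave 0.33. Downward they were Vwa8 (difference -0.62 ± 0.13, with -0.05 from its second probe), Sema3e, a guidance cue for vessels and axons (-0.59 ± 0.13), and Slc16a11, a monocarboxylate transporter of the SLC16 family (-0.70 ± 0.17).

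**Figure D2:**
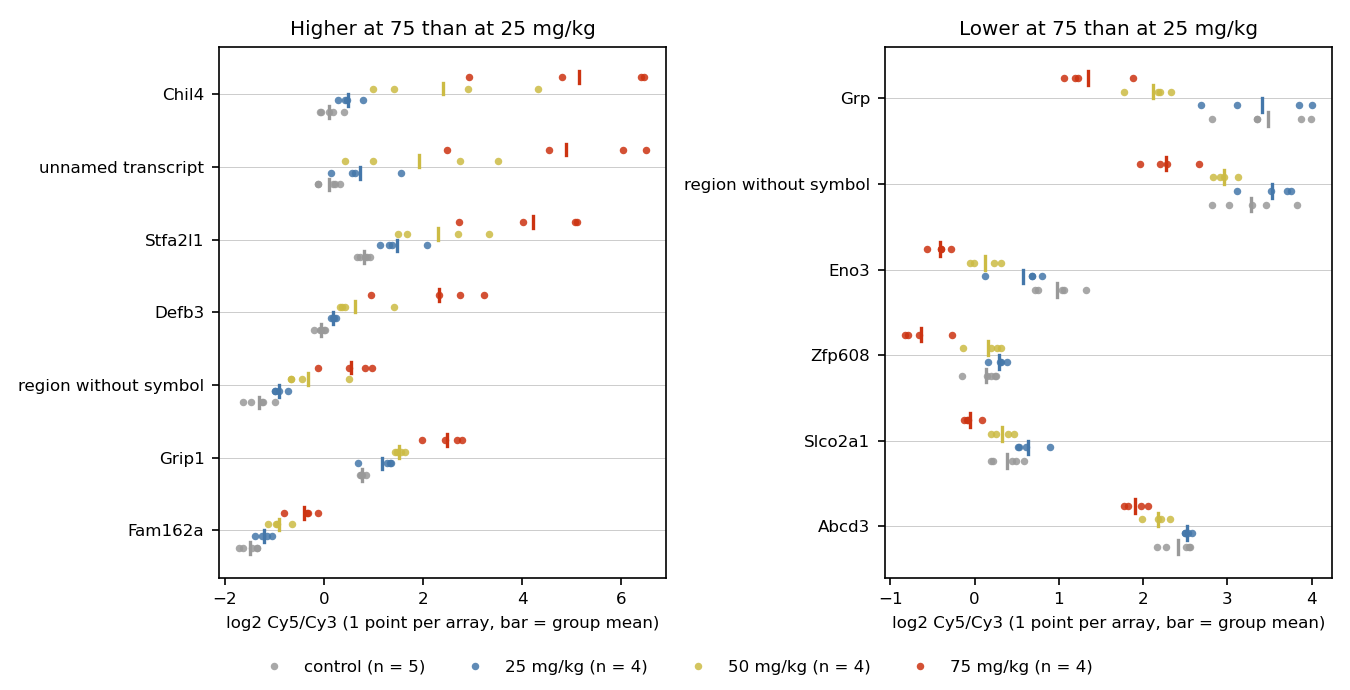
Log2 ratio of Cy5 over Cy3 on each array (points, x axis) and the group mean (bars) for the 7 features that rose and the 6 that fell at 75 against 25 mg/kg, with the control and 50 mg/kg arrays for comparison. In every panel row the red 75 mg/kg points lie apart from the blue 25 mg/kg points, and replicate 19 is the leftmost red point of all 7 features that rose.

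Among the genes that passed downward, Grp had the widest difference. It encodes gastrin-releasing peptide, a neuropeptide of enteric neurons that stimulates gastrin secretion and smooth muscle. Its log2 ratio was 3.11, 4.00, 2.69 and 3.85 at 25 mg/kg and 1.06, 1.23, 1.19 and 1.88 at 75 mg/kg, with 3.48 ± 0.47 (SD, n = 5) in controls. Grp fell by 2.07 ± 0.29, so that the 25 mg/kg level was 4.20 times that at 75 mg/kg (limma adjusted p = 0.0176). The within-slide differences were -2.49, -1.48 and -1.97 on slides 1, 2 and 3.

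Of 13 measured neuropeptide and secretory granule genes, 1 fell (Grp; 0.0281% of all genes fell) and 0 rose. A further 7 had an unadjusted p under 0.05 with a lower level at 75 mg/kg (2.46% of all genes had one), 1 had one with a higher level, and 12 of the 13 differences were negative, with a median of -0.61 against -0.01 over all genes. Tac1, the precursor of substance P, was at 3.22, 3.63, 3.82 and 4.24 and at 2.26, 2.38, 2.70 and 3.07 (difference -1.12 ± 0.26, limma adjusted p = 0.181). Cartpt, the precursor of the CART peptides of enteric neurons, was at 2.77, 3.41, 2.59 and 3.73 and at 2.14, 1.67, 1.55 and 2.21 (difference -1.23 ± 0.33, limma adjusted p = 0.331). Penk, the enkephalin precursor, differed by -0.94 ± 0.21, with 4.04 to 4.65 at 25 mg/kg and 3.14 to 3.68 at 75 mg/kg (limma adjusted p = 0.164). None of the 3 overlapped between the groups. The granule proteins Scg2 and Chgb differed by -0.94 ± 0.25 and -0.86 ± 0.26, with overlap, and Npy, neuropeptide Y, by -0.61 ± 0.21. Cck, cholecystokinin, lay the other way, at 0.34 to 0.61 and at 1.503, 0.66, 0.32 and 1.65 (difference 0.55 ± 0.22, limma adjusted p = 0.901).

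Of 13 measured markers of enteric nerve and glia, 11 differences were negative (47.3% of all genes were positive) and the median was -0.33. Of these markers 1 had an unadjusted p under 0.05 with a lower level (2.46% of all genes had one). A further 1 had one with a higher level (Tubb3, 0.46 ± 0.16, against 2.28% of all genes), and none passed by limma. The mean over that list overlapped between the groups, at 0.79 to 1.31 at 25 mg/kg and 0.51 to 1.03 at 75 mg/kg. Smooth muscle contractile genes had a median of -0.34, with 14 of 15 negative and none at an unadjusted p under 0.05, and a mean over the list of 3.45 to 4.40 and 3.46 to 4.06. The part of these cell types in the fall of Grp was not tested.

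Eno3, the muscle form of enolase, was at 0.68, 0.80, 0.13 and 0.68 at 25 mg/kg and at -0.57, -0.40, -0.28 and -0.40 at 75 mg/kg, and fell by 0.99 ± 0.15 (limma adjusted p = 0.0302). Controls were higher still, at 0.98 ± 0.25 (SD, n = 5). It was 1 of 9 measured striated muscle markers, of which 6 differences were negative with a median of -0.14. Tnni2, a fast troponin, and Ckm, muscle creatine kinase, differed by -0.91 ± 0.30 and -0.63 ± 0.28 and did not pass (limma adjusted p = 0.602 and 0.988), while Acta1 differed by 0.32 ± 0.59. The mean over the list ranged from 0.70 to 0.91 at 25 mg/kg and from 0.22 to 0.66 at 75 mg/kg, and its part in the fall of Eno3 was not tested.

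Zfp608, a zinc finger protein, was at 0.30, 0.39, 0.16 and 0.32 against -0.66, -0.82, -0.79 and -0.27 and fell by 0.93 ± 0.13 (limma adjusted p = 0.0176). Its mean at 50 mg/kg, 0.16 ± 0.20 (SD, n = 4), and in controls, 0.14 ± 0.17 (SD, n = 5), lay near that at 25 mg/kg. Slco2a1, a transporter that takes up prostaglandins, was at 0.90, 0.61, 0.52 and 0.52 against -0.13, -0.09, 0.09 and -0.08 and fell by 0.69 ± 0.11 (limma adjusted p = 0.0302). The last feature that fell has no symbol and is named by its mm9 position, chr5:152006587-152008784. It stood at 3.75, 3.71, 3.12 and 3.52 and at 1.96, 2.28, 2.66 and 2.20 (difference -1.25 ± 0.20, limma adjusted p = 0.0302), and its other probes gave -1.14 and -1.17, the second of which passed as well (adjusted p over probes = 0.0337).

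Abcd3, which carries fatty acyl chains into peroxisomes, was the sixth gene that fell. Its levels were tight, at 2.58, 2.53, 2.50 and 2.49 at 25 mg/kg and 1.97, 1.77, 1.83 and 2.06 at 75 mg/kg, a fall of 0.62 ± 0.11 (limma adjusted p = 0.0434). Other genes of fatty acid handling lay the same way without passing. Plin2, which coats lipid droplets, was at 1.08, 0.92, 1.05 and 0.86 and at 0.21, 0.34, 0.33 and 0.21, groups that did not overlap (difference -0.70 ± 0.13, limma adjusted p = 0.0788). Decr1, the mitochondrial dienoyl-CoA reductase, was at 3.65, 3.54, 3.13 and 3.25 and at 2.30, 2.18, 2.87 and 1.99 (difference -1.06 ± 0.22, limma adjusted p = 0.148). Eci1, an enoyl-CoA isomerase of the same pathway, differed by -0.60 ± 0.15 (limma adjusted p = 0.278).

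In the fatty acid oxidation and PPAR target list, 0 of 26 measured genes passed by limma and 15 had an unadjusted p under 0.05, all lower at 75 mg/kg, against 2.46% of all genes. All 26 differences were negative, from -1.40 to -0.08, with a median of -0.36. Angptl4, a secreted inhibitor of lipoprotein lipase, had the widest difference, -1.40 ± 0.32, but its arrays at 25 mg/kg were spread (1.13, 0.61, -0.79 and -0.13) and overlapped those at 75 mg/kg (-1.41, -1.35, -0.45 and -1.55). Pdk4, the kinase that turns off pyruvate dehydrogenase, differed by -0.87 ± 0.23, Acaa2, the mitochondrial thiolase, by -0.53 ± 0.14, Fabp3, a fatty acid binding protein, by -1.004 ± 0.33, and Acadm, the medium-chain dehydrogenase, by -0.30 ± 0.10. Replicate 8 was the lowest 25 mg/kg array for Angptl4, Pdk4 and Decr1. Within slide 2, where replicate 8 is the 25 mg/kg array, Angptl4 differed by -0.11, against -2.29 and -1.43 within slides 1 and 3.

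Adipocyte markers varied widely within both groups. Of 18 measured, 17 differences were negative (47.3% of all genes were positive) with a median of -0.38. An unadjusted p under 0.05 was found for 3, all lower (2.46% of all genes were), and none passed by limma. The mean over the list was 3.45, 1.49, 2.17 and 2.58 at 25 mg/kg and 1.32, 1.13, 2.28 and 2.18 at 75 mg/kg. Adipoq, which encodes adiponectin, the defining hormone of fat cells, ranged from 0.13 to 5.40 at 25 mg/kg and from -0.16 to 2.84 at 75 mg/kg. The part of fat tissue in the values of the fatty acid genes was not tested.

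**Figure D3:**
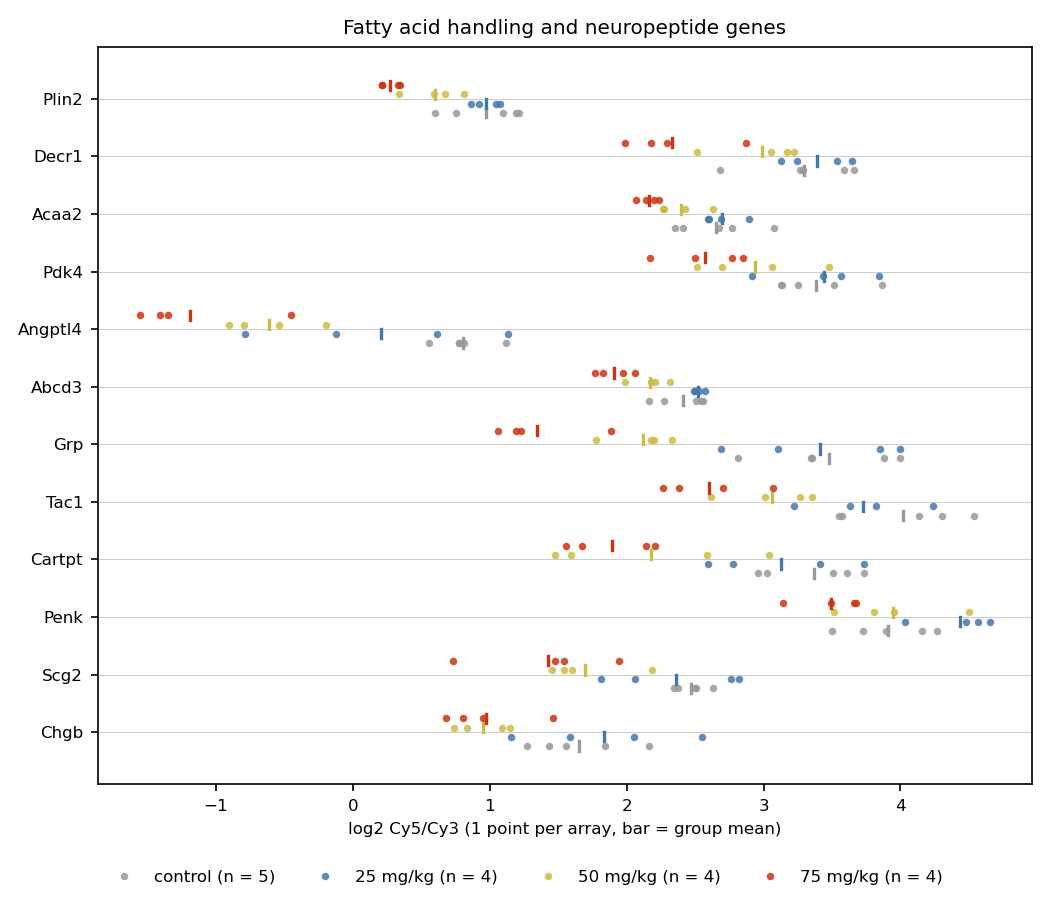
Log2 ratio of Cy5 over Cy3 on each array (points) and the group mean (bars) for 6 genes of fatty acid handling and 6 neuropeptide and granule genes. The red 75 mg/kg points lie left of the blue 25 mg/kg points without overlap for Plin2, Decr1, Acaa2, Pdk4, Abcd3, Grp, Tac1, Cartpt and Penk, and overlap them for Angptl4, Scg2 and Chgb.

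Interferon-induced antiviral genes were higher at 75 mg/kg in every measured member, although 0 of 35 passed the adjusted limma test. Interferons act through receptors that activate the transcription factors STAT2 and IRF9, which act together at the interferon-stimulated response element (ISRE) before genes whose products block viral replication. All 35 measured members had a positive difference, from 0.16 to 2.10 with a median of 0.97, where 47.3% of all genes were positive. An unadjusted p under 0.05 was found for 27 of the 35, all higher (2.28% of all genes were), and 19 did not overlap between the groups (3.1% of all genes did not).

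Isg15, a ubiquitin-like modifier, was at -1.06, -1.52, 0.12 and 0.18 at 25 mg/kg and at 1.84, 2.47, 1.16 and 0.66 at 75 mg/kg (difference 2.10 ± 0.50, limma adjusted p = 0.212), and a second probe gave 1.85 ± 0.34. Oas1a, an oligoadenylate synthetase that activates RNA decay, was at -2.65, -2.54, -0.88 and -1.73 and at 0.24, 0.90, -1.01 and -0.02, with overlap through replicate 19 (difference 1.98 ± 0.42, limma adjusted p = 0.148). Ifit3, which binds viral RNA complexes, was at 0.17, -0.30, 0.17 and 0.78 and at 1.34, 1.90, 1.09 and 1.27, apart from each other (difference 1.20 ± 0.23, limma adjusted p = 0.075). In each of these genes the highest array at 25 mg/kg was replicate 8 or 9 and the highest at 75 mg/kg replicate 18.

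Sensors of viral RNA showed smaller differences. Ifih1, also called MDA5, was at -0.06, -0.16, 0.58 and 0.39 and at 1.27, 1.44, 0.65 and 1.25 (difference 0.97 ± 0.18, limma adjusted p = 0.075). Dhx58, also called LGP2, was at -0.75, -0.48, -0.81 and -0.62 and at 0.13, 0.32, -0.05 and -0.12 (difference 0.74 ± 0.15, limma adjusted p = 0.126). Bst2, or tetherin, which holds budding virus at the membrane, was at -1.56, -1.997, -0.98 and -1.33 and at -0.19, 0.16, -0.995 and -0.27 (difference 1.14 ± 0.25, limma adjusted p = 0.153), with replicate 19 inside the 25 mg/kg range. Of the signal carriers, Stat2 differed by 0.93 ± 0.21 (limma adjusted p = 0.164) and Irf9 by 0.98 ± 0.25 (limma adjusted p = 0.307), both without overlap.

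The mean over the interferon list was -0.53, -1.04, -0.47 and -0.51 at 25 mg/kg and 0.51, 0.60, -0.05 and 0.09 at 75 mg/kg. All 4 arrays at the higher dose were above all 4 at the lower dose, and the 50 mg/kg arrays, at 0.19, 0.47, -0.11 and -0.75, spanned both. Control arrays ranged from -1.30 to -0.57. Within slides 1, 2 and 3 the difference of the means was 1.30, 0.75 and 0.60.

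A form of the ISRE, the letters GAAA, any 2 bases and GAAA again, was searched on both strands in the 250 bases before the starts of genes in the RefSeq table. Of the 35 measured members 27 had a window there, and 14 of these (51.9%) held a match, against 349 of 10983 tested genes with a window (3.18%) and 936 of all 27025 genes (3.46%). The windows of 4 members with a match within 150 bases of the start are printed as examples. Isg15 and Oas1a had the widest differences of the list. Other members with a match, such as Tgtp2 (1.46) and Ifit1 (1.27), differed more than Ifit3 and Bst2. The windows are from GRCm38.p6, 5′ to 3′ on the gene's strand, and capitals mark the matches, which overlap in Isg15, Oas1a and Bst2.
Isg15 (chr4:156200819-156200968, minus strand): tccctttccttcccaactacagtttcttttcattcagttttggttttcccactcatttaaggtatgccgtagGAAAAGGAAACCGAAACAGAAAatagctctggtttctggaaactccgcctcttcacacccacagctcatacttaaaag
Oas1a (chr5:120907526-120907675, minus strand): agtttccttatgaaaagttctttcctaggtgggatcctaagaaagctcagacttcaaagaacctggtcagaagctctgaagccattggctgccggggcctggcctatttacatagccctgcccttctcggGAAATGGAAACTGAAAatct
Ifit3 (chr19:34583379-34583528, plus strand): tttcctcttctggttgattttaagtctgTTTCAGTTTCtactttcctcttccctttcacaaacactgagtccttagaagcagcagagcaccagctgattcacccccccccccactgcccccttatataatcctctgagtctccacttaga
Bst2 (chr8:71537473-71537622, minus strand): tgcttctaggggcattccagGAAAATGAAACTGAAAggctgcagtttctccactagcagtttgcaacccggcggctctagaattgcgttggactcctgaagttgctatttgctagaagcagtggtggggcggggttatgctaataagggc
The match in Ifit3 is on the opposite strand and begins 122 bases before the start, and those in Isg15, Oas1a and Bst2 begin 78, 20 and 130 bases before it. Ifih1, Irf9 and Oasl2 had differences of 0.97, 0.98 and 1.33 and no match in this window, which says nothing of sites elsewhere.

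Class I antigen presentation genes, which cut proteins into peptides, carry them into the endoplasmic reticulum and show them to CD8 T cells, lay in the same direction. Of 15 measured, 0 passed by limma, 12 had an unadjusted p under 0.05, all higher (2.28% of all genes were), and all 15 were positive (47.3% of all genes were), with a median of 0.78. H2-K1, a class I heavy chain, was at 0.38, 0.19, 0.94 and 0.79 and at 1.80, 2.06, 1.12 and 1.83 (difference 1.13 ± 0.33, limma adjusted p = 0.440). B2m, the light chain, was at -1.22, -1.81, -0.80 and -0.61 and at -0.20, 0.40, -0.62 and 0.21 (difference 1.06 ± 0.36, limma adjusted p = 0.658). Tapbp, which loads peptide onto class I, had the smallest p of the list, with -0.18, -0.48, -0.14 and -0.16 against 0.46, 0.34, 0.17 and 0.25 (difference 0.54 ± 0.12, limma adjusted p = 0.148). Nlrc5, the transactivator of class I genes, differed by 0.78 ± 0.25, the peptide transporter Tap1 by 0.85 ± 0.24 and the immunoproteasome subunit Psmb9 by 1.28 ± 0.44. H2 and Oas1 probes may read related copies. Replicate 19 was the lowest 75 mg/kg array for 12 of the 15 genes, and the mean over the list was -0.52 to 0.07 at 25 mg/kg and 0.25 to 0.89 at 75 mg/kg. Class II genes had a median of 0.54 over 7 measured, all positive, with none at an unadjusted p under 0.05.

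Among 13 chemokines 0 passed by limma and 5 had an unadjusted p under 0.05, all higher (2.28% of all genes were), with a median of 0.43. Cxcl10, a ligand of CXCR3 on T cells, was at -1.21, -1.94, -0.91 and -0.95 and at 0.06, 1.03, -0.58 and 0.50 (difference 1.502 ± 0.43, limma adjusted p = 0.412). Ccl8, which attracts monocytes, was high at both doses, at 4.16, 2.11, 4.08 and 3.61 and at 5.30, 4.50, 4.48 and 4.85, against 0.83 ± 0.62 (SD, n = 5) in controls, and its difference of 1.30 ± 0.42 did not pass (limma adjusted p = 0.602). Markers of immune cells are given beside these values. Macrophage and dendritic cell genes had a median of 0.28 over 16 measured (3 at an unadjusted p under 0.05, among them Ms4a7 at 0.78 ± 0.20 and the Langerhans cell marker Cd207 at 0.68 ± 0.24), and T and NK cell genes a median of 0.31 over 10 (0 at an unadjusted p under 0.05). The mean over the macrophage list was 0.42 to 0.92 at 25 mg/kg and 0.93 to 1.16 at 75 mg/kg, and that over the T and NK list -0.76 to -0.46 and -0.51 to -0.17. Their part in the interferon and class I values was not tested.

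**Figure D4:**
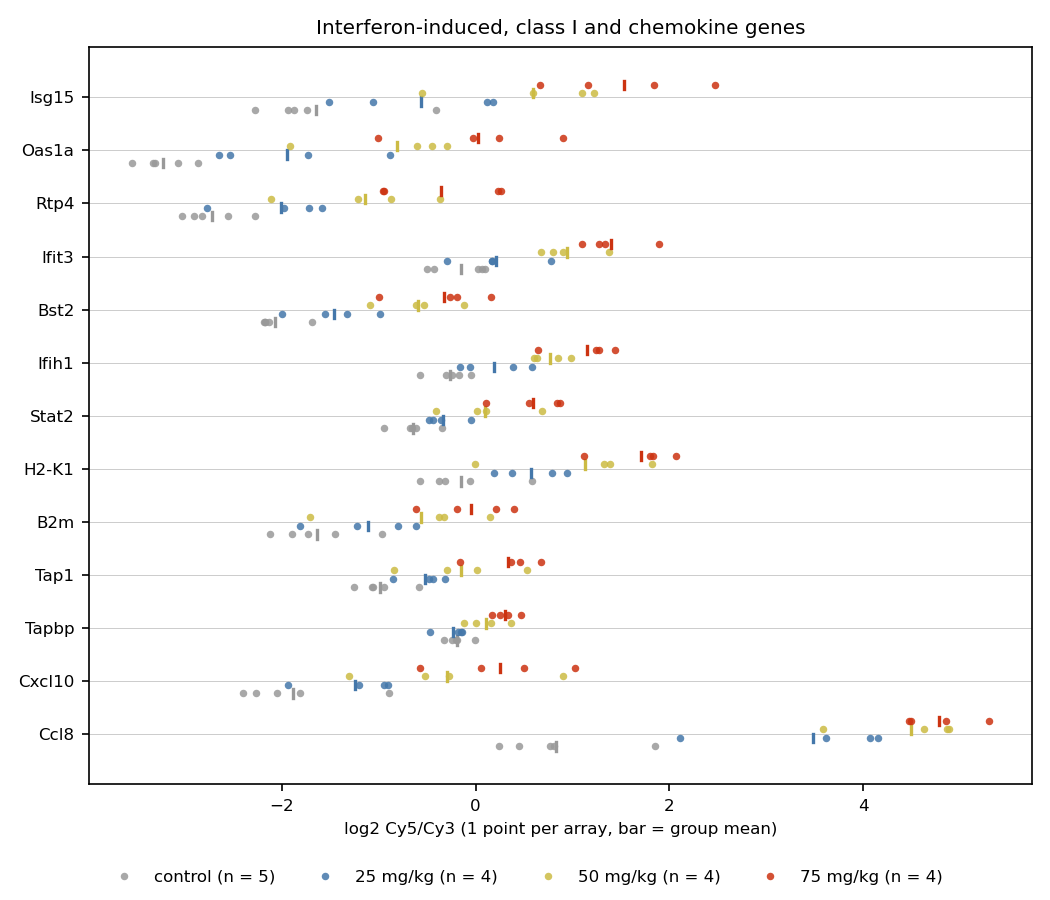
Log2 ratio of Cy5 over Cy3 on each array (points) and the group mean (bars) for 7 interferon-induced genes, 4 class I presentation genes and 2 chemokines. The group means are ordered control, 25, 50 and 75 mg/kg for every gene shown but Tapbp, and the 75 and 25 mg/kg points overlap for Oas1a, Bst2 and B2m.

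Stress keratins, small proline-rich proteins and desmosome genes of the squamous epithelium held no gene that passed. The 4 stress keratins were all positive, with a median difference of 1.33, although Krt17 turned negative with Agilent's processed signals. Krt16, a keratin of wounded and hyperproliferative epithelium, was at 2.43, 2.35, 2.31 and 2.61 and at 5.42, 4.76, 3.29 and 5.24 (difference 2.25 ± 0.60, limma adjusted p = 0.335). Its 25 mg/kg arrays were close together and the 75 mg/kg arrays were not. Krt6a and Krt6b, its pairing partners, differed by 1.43 ± 0.59 and 1.24 ± 0.61 with overlap, and Krt17 by 0.46 ± 0.59, a value that was -0.29 with Agilent's processed signals. Of 11 small proline-rich genes, precursors of the cornified envelope, 0 passed by limma, 8 were positive and 3 negative with a median of 0.53, and 4 had an unadjusted p under 0.05 (2.28% of all genes were higher at that p): Sprr2f (difference 2.13 ± 0.55), Sprr1b (2.07 ± 0.61), Sprr2h (1.97 ± 0.46) and Sprr2k (1.33 ± 0.39). Sprr2 probes may read more than 1 copy. Of 13 desmosome genes 9 were positive and 4 negative, with a median of 0.02. The desmosomal cadherins Dsc2 and Dsg1a differed by 1.38 ± 0.33 and 1.08 ± 0.34 (limma adjusted p = 0.226 and 0.568), and the other 11 desmosome genes had an unadjusted p of 0.05 or more.

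Basal and late epithelial genes had medians below 0. The median was -0.08 over 12 basal keratinocyte genes, -0.18 over 9 keratins of stratified epithelium and -0.20 over 23 cornified envelope genes, with 0 of these at an unadjusted p under 0.05. Of 35 proliferation and mitosis genes 30 were positive (47.3% of all genes were), with a median of 0.14. Of the 35, 1 had an unadjusted p under 0.05 (4.74% of all genes did in either direction). S100a8, an alarmin of epithelium and neutrophils, ranged from -2.07 to -1.72 at 25 mg/kg and was at 1.21, -0.36, -1.44 and 3.09 at 75 mg/kg (difference 2.53 ± 1.04, limma adjusted p = 0.907). The 4 measured neutrophil markers, which do not include S100a8, had differences of 0.03 to 0.27. Saa1, a serum amyloid protein of liver and epithelium, lay the other way, at 0.66, 2.26, 0.88 and 1.22 and at 0.17, -1.09, -1.43 and -0.61 (difference -1.99 ± 0.54, limma adjusted p = 0.355).

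**Figure D5:**
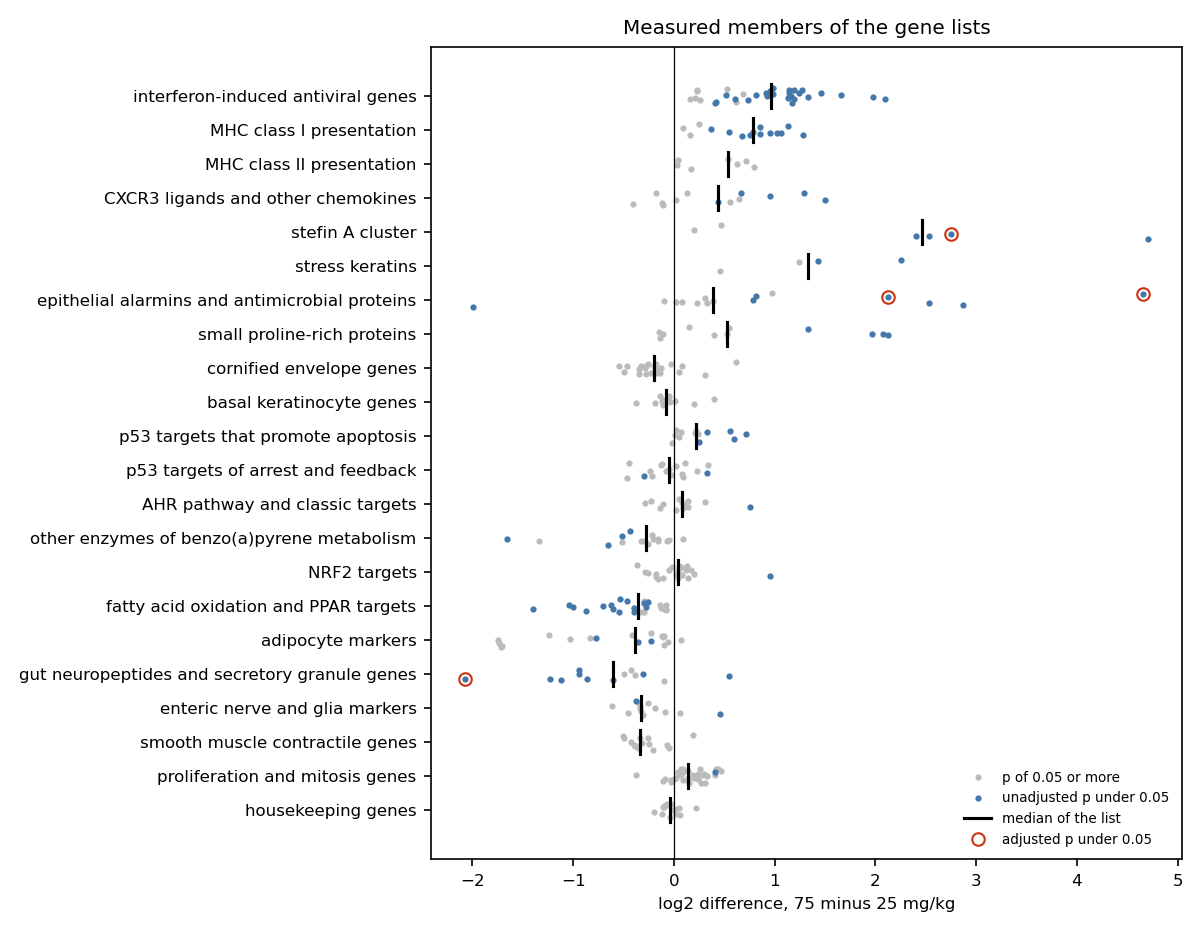
Log2 difference between 75 and 25 mg/kg for the measured members of 22 gene lists (points), with the median of each list as a bar. Every interferon-induced and class I gene is right of 0 and every fatty acid oxidation gene left of it, while the basal keratinocyte, AHR, NRF2 and housekeeping lists straddle 0.

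No gene of the AHR pathway passed the test between the doses. Cyp1a1, the best known AHR target, was at 0.17, 0.68, 0.51 and 0.51 at 25 mg/kg and at 0.33, 0.67, 0.19 and 1.00 at 75 mg/kg, and was well above background on 1 and 2 of the 4 arrays. The difference of 0.08 ± 0.19 has a 95% interval of -0.31 to 0.48, which leaves room for a 1.39-fold higher level at 75 mg/kg. Cyp1b1, the extrahepatic member of the family, differed by 0.02 ± 0.21 (95% interval -0.43 to 0.47). With Agilent's processed signals Cyp1a1 differed by -0.33, and in the Cy5 channel alone Cyp1b1 differed by -0.07. Of 13 AHR pathway genes, 0 passed by limma and 1 had an unadjusted p under 0.05, as 4.74% of all genes did in either direction. It was Gsta2, a glutathione transferase, at 4.71, 5.04, 5.40 and 4.61 and at 5.49, 5.90, 5.57 and 5.83 (difference 0.75 ± 0.25, limma adjusted p = 0.626). Nqo1, a quinone reductase driven by both AHR and NRF2, differed by -0.28 ± 0.14. Of 22 NRF2 targets, Slc7a11, the cystine transporter, alone had an unadjusted p under 0.05 (difference 0.96 ± 0.24, limma adjusted p = 0.249). That count is near the share over all genes (4.74% in either direction).

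Other enzymes that act on benzo(a)pyrene or its products lay lower: 15 of 16 differences were negative (47.3% of all genes were positive) with a median of -0.28. An unadjusted p under 0.05 was found for 4, all lower (2.46% of all genes were), and 0 passed by limma. Akr1b8, an aldo-keto reductase, was at 1.17, 1.28, 0.40 and 0.90 and at 0.24, 0.33, 0.38 and 0.19 (difference -0.65 ± 0.19), Cbr1, a carbonyl reductase, differed by -0.51 ± 0.19 and Aldh1a1, a retinaldehyde dehydrogenase, by -0.43 ± 0.15. Ugt2b34, a glucuronosyltransferase, was at 3.77, 4.42, 2.52 and 3.15 and at 2.06, 1.71, 2.01 and 1.44 (difference -1.66 ± 0.36, limma adjusted p = 0.16). Sult1e1, the oestrogen sulfotransferase, had the widest negative difference of any gene, -3.50 ± 0.72 (limma adjusted p = 0.126), with 5.80, 5.88, 4.02 and 5.60 at 25 mg/kg and 1.06, 1.72, 2.57 and 1.94 at 75 mg/kg. Pancreas and hepatocyte genes, which mark RNA from neighbouring organs, had a median of -0.81 over 8 measured (0 at an unadjusted p under 0.05), with a list mean of 1.91, 3.20, 1.85 and 1.91 at 25 mg/kg and of 3.63, 0.86, 1.22 and 0.92 at 75 mg/kg. Their part in the values of Ugt2b34 and Sult1e1 was not tested.

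Targets of p53 were described in 2 lists, those that promote apoptosis and those of arrest and feedback, and the difference between the lists was not tested. Of 13 apoptosis genes 12 were positive (47.3% of all genes were) with a median of 0.22. An unadjusted p under 0.05 was found for 5, all higher (2.28% of all genes were), and 0 passed by limma. Pmaip1, or NOXA, which frees BAX by binding survival proteins, was at -1.72, -1.43, -1.67 and -1.80 and at -0.80, -1.10, -1.10 and -0.75 (difference 0.72 ± 0.15, limma adjusted p = 0.122). The stress protein gene Trp53inp1, itself induced by p53, was at -0.04, -0.19, -0.15 and -0.24 and at 0.41, 0.47, 0.43 and 0.47 (difference 0.60 ± 0.12, limma adjusted p = 0.111), though its second probe gave 0.19 ± 0.11. Bbc3, or PUMA, differed by 0.56 ± 0.13 and Bax by 0.25 ± 0.10, both without overlap. Of 17 arrest and feedback genes 7 were positive, with a median of -0.04. Cdkn1a, the p21 inhibitor of the cell cycle, differed by 0.11 ± 0.20 (95% interval -0.32 to 0.55), and by -0.04 in the Cy5 channel alone. Its second probe gave a wider difference, 0.43 ± 0.17 (limma adjusted p over probes = 0.923). Mdm2, which degrades p53, differed by 0.23 ± 0.15 (95% interval -0.08 to 0.53). Phlda3, an inhibitor of AKT, had 1.02, 1.00, 1.03 and 1.00 at 25 mg/kg and 1.49, 1.43, 1.09 and 1.34 at 75 mg/kg (difference 0.32 ± 0.11, limma adjusted p = 0.677).

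The call of 13 genes depended on the arrays and on the fit. With the 8 arrays of the 2 doses alone 0 genes passed (1151 had an unadjusted p under 0.05), and with the 12 dosed arrays 7 passed. With slide as a fixed or a random block 32 genes passed, including all 13, and among the genes added by both blocks were Plin2, Stfa1, Gm21944, Dsc2, Pmaip1, Trp53inp1, Dhx58 and Sult1e1. No gene passed with Agilent's processed signals (1062 at an unadjusted p under 0.05) or with median centring only (487). Leaving out single arrays at 75 mg/kg left 0 genes (replicate 17; 907 at an unadjusted p under 0.05 by limma), 1 gene (replicate 18) and 3 genes (replicate 20). At 25 mg/kg, dropping replicate 6, 7 or 9 left 2, 1 and 1. The count was 6, 6 and 7 when control 1, 3 or 4 was dropped, and 24 when replicate 12 at 50 mg/kg was. Over the 17 fits that each dropped an array, Grip1 passed in 16 (limma adjusted p = 0.055 when replicate 17 was dropped), Grp in 13, Zfp608 in 12, Chil4 and Eno3 in 11, Slco2a1 and the chromosome 5 region in 10, Stfa2l1 in 8, Defb3 in 7, Abcd3 and XM_884904 in 5, and Fam162a and the chromosome 4 region in 4.

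Replicate 19 at 75 mg/kg stood apart in the genes that were higher at that dose. It was the lowest of the 4 arrays for all 7 features that rose, for 17 of the 35 interferon genes, for 8 of the 10 small proline-rich genes measured on every array and for all 4 stress keratins, where over all genes it was the lowest for 5423 of 21345. Without it 37 genes passed, 31 higher and 6 lower, 12 of them among the 13. Replicate 19 was singled out as the lowest array for genes that rose, so leaving it out widens their differences by construction. Genes added in that way have no further support from that fit, and leaving out replicate 17, 18 or 20 left 0, 1 and 3 genes. Outside the 13, genes that passed in that fit included Stfa1 (5.47 ± 0.86, limma adjusted p = 0.0165), Stfa2 (3.11 ± 0.49, limma adjusted p = 0.0165), Dsc2 (1.71 ± 0.29, limma adjusted p = 0.0287), Bbc3 (0.68 ± 0.13, limma adjusted p = 0.0435) and 5 genes of the interferon list: Ifih1, Bst2, Oas1a, Ifit3 and Stat2. Mcpt1, a mucosal mast cell protease well above background on 0 of 4 arrays at 25 mg/kg and 3 of 4 at 75 mg/kg, also passed in that fit (limma adjusted p = 0.00665), while with all arrays it was at least 1.69-fold higher and did not pass (limma adjusted p = 0.298).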

How the data were processed

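Forestomach RNA of 17 mice was measured on 2-colour Agilent arrays, and the file headers name Feature Extraction 10.7.3.1. The deposited scanner files hold intensity values, of which the median signal and median background of both dyes were used, and the authors' deposited series table holds log2 ratios, whose centring and normalization are not given in the sources used here. Column medians of that table ran from -0.035 to -0.020, and its values followed the log2 ratios recomputed here (correlation 0.998 to 0.999).

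Background was corrected with normexp (offset 50), ratios were normalized by loess within each array with control spots at weight 0, and spots of a probe were averaged. A probe was kept where its Cy5 signal was well above background on 4 or more arrays, and the brightest kept probe stood for its gene. All dyes ran the same way, so dye bias is not separated from level. Limma 3.58.1 in R 4.3.3 was fitted to all 17 arrays with 4 group means, and the contrast of 75 minus 25 mg/kg was adjusted by Benjamini-Hochberg over 21384 genes (threshold 0.05, two-sided). The number of arrays limits the precision. Symbols came through RefSeq transcripts (GRCm38.p6) and matched 26413 of 55681 probes, while positions of unnamed features are those of the array's mm9 design.

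Genes described are those that passed, the next 10 in each direction by p, key members of the gene lists, and further list members chosen after their values were seen. The members and lists were chosen with earlier results of these data known. The design text calls the samples biological replicates. Alternatives covered background, normalization, filter, probe summary, samples in the fit, slide as a block and array weights.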

Additional observations from a re-analysis of the deposited data

Results flagged for a closer look

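Among 212 groups of 4 arrays (106 genes at both doses), 13 held 1 array far from the other 3, by a gap to the nearest of them that exceeded Dixon's 95% critical value. Chance alone flags about 1 in 20 such groups. Replicate 7 at 25 mg/kg was the array in 5 of them. Its log2 ratio was 0.70 for Grip1 where the others were 1.28 to 1.36, -0.99 for Bax (others -0.73 to -0.71), -1.15 for Tgtp2 (others 1.26 to 1.74), -0.48 for Tapbp (others -0.18 to -0.14) and -0.67 for Ms4a7 (others 0.21 to 0.37). Replicate 8 at 25 mg/kg was at -0.57 for Csprs (others -1.11 to -1.04), 4.02 for Sult1e1 (others 5.60 to 5.88) and 5.20 for Stfa3 (others 1.86 to 2.37). At 75 mg/kg, replicate 17 was at -0.69 for Cyp1b1 (others -0.20 to -0.14) and at -2.29 for the chemokine Ccl7 (others -2.57 to -2.53). Replicate 19 was at 0.36 for Cdkn1a (others 0.82 to 0.90). Replicate 20 was at 2.25 for Ckm (others 0.97 to 1.19) and at 0.97 for Npy (others 0.48 to 0.54).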

How the results depend on the processing

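The 13 genes that passed kept their direction in all 13 alternative settings and in all 17 fits that left out 1 array. The count of genes that passed was 0 in both directions with Agilent's processed signals (1062 at an unadjusted p under 0.05 by limma), with median centring only (487) and with the 8 arrays at 25 and 75 mg/kg alone (1151). It was 7 with the 12 dosed arrays (3 higher), 32 with slide as a fixed block (19 higher, 13 lower), 32 with slide as a random block (22 higher, 10 lower) and 37 with array weights (21 higher, 16 lower). Genes higher numbered 4 with the Cy5 channel alone, 4 without the filter on dim probes and 4 with the mean over the probes of a gene. Leaving out 1 array gave 0 to 37 genes, 0 to 31 higher and 0 to 9 lower. The sign turned with processed signals for Krt17 (-0.29), Cyp1a1 (-0.33) and Defb14 (-0.14), with Cy5 alone for Cyp1b1 (-0.0693) and Cdkn1a (-0.0440), and with slide as a fixed block for Cyp1b1 (-0.00714). Leaving out 1 array gave -0.0696 to 0.20 for Cyp1a1, -0.0782 to 0.18 for Cyp1b1 and -0.0634 to 0.26 for Cdkn1a. The cause was not tested. No paired analysis was possible because the groups share no replicate numbers in the labels; the slides, each of which holds both doses, were fitted as blocks instead. Signal over background limits Chil4, XM_884904, Defb3, S100a7a, Mcpt1 and Cyp1a1, which were near background on most arrays of at least 1 group.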

Other observations

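Groups with no call and little difference between the doses included 19 genes of bulky adduct repair and bypass synthesis, with differences from -0.23 to 0.22, a median of 0.04 and 0 members at an unadjusted p under 0.05 by limma. The 15 squamous tumour driver genes ranged from -0.14 to 0.34 and the 12 immediate early genes from -0.52 to 0.29, also with 0 members at an unadjusted p under 0.05. Of 18 retinoid handling genes 14 were lower at 75 mg/kg (47.3% of all genes were higher), with a median of -0.19. An unadjusted p under 0.05 was found for 4, all lower (2.46% of all genes were), among them Cyp26b1, which clears retinoic acid (difference -0.78 ± 0.25). Saa2, a serum amyloid gene beside Saa1, differed by -2.66 and did not pass (it was chosen after its value was seen).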
